A study of Mus musculus with 4 samples.

Results

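The mouse mitochondrial genome encodes 13 proteins, and 10 of these genes had a probe set of their own on the arrays of this series: ND1, ND2, ND3, ND4, ND4L, ND5, ND6, CYTB, COX1 and COX3. They were selected by gene symbol, as 10 of the 22180 genes with a named probe set, and each was measured by 1 probe set. The choice of these genes was made from the readout, because their log2 values on these 4 arrays were known when they were proposed. Their levels and differences are therefore given as a description, with no test.

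Total RNA came from mouse embryonic stem cells in 4 groups, with 1 array per group, all on strip 2 of the GeneAtlas system. Cells of every group lacked Prdm14, a zinc finger gene of naive stem cells and germ cells, and were kept in 2i + LIF medium over STO fibroblast feeders. The first group carried an empty vector and the second mouse PRDM14. The third carried the sea urchin PRDM14, and the fourth the sea urchin versions of both PRDM14 and CBFA2T, a co-repressor. The labels do not say how the vectors were introduced or whether a group was 1 clone.

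The mitochondrial genome is a small circular DNA present in many copies per cell. Its genes are transcribed from both strands as long precursors, which are cut at the transfer RNAs between them into separate messenger and ribosomal RNAs. The ND proteins, CYTB and the COX proteins are hydrophobic core subunits of the respiratory chain. The ND proteins belong to complex I, which takes electrons from NADH, CYTB to complex III, and the COX proteins to complex IV, which passes electrons to oxygen. All other subunits of these complexes come from nuclear genes, so each complex depends on both genomes.

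The values were log2 expression values made by the authors with RMA, a method that equalises the distributions of the arrays. Array medians lay between 4.54 and 4.55. A gene counted as measurable at 4.84 or more on at least 1 array, a limit set at the median of the named probe sets. All 10 mitochondrial genes passed, as did 12042 genes in all. The 12 embryonic stem cell markers passed as well, with means between 6.83 and 7.02 per array. Of the 19 fibroblast markers with a probe set, 14 passed, with means between 6.24 and 6.35; the share of feeder RNA was not tested. The Prdm14 probe set read 5.71 with the empty vector and 5.57 on the array labelled mouse PRDM14, and therefore gave no check of the labels. Group names mean the arrays labelled with them.

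Most of the 10 mitochondrial genes shared a simple pattern over the 4 arrays. They were lowest with the empty vector, intermediate with mouse or sea urchin PRDM14 and highest with sea urchin PRDM14 and CBFA2T, and the whole span was small. In 9 of 10 genes the empty vector array gave the lowest value, as it did in 25.4% of all 12042 genes. In 9 of 10 the array with CBFA2T gave the highest value, as it did in 27.3% of all genes. Both held in 8 of the 10, against 9.93% of all genes. The pattern was read from these same values, so the shares beside it are a description and not a test of it. Among the 593 other genes in the brightest twentieth, where all 10 members lie, these shares were 31.2%, 28.2% and 14.2%. That twentieth starts at a mean value of 7.16, and the members had means from 8.15 (ND6) to 11.94 (COX1). Brightness is therefore only loosely matched. The exceptions were ND3, lowest with mouse PRDM14, and ND5, highest with it. The difference between highest and lowest array ran from 0.22 in ND3 to 0.37 in COX3 on the log2 scale. The members are cut from shared long precursors, so counts of members are not counts of independent genes. With 1 array per group, a difference between arrays and one between cells cannot be told apart. In bulk RNA, more mitochondrial RNA in each cell and more cells rich in it cannot be told apart either.

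**Figure D1:**
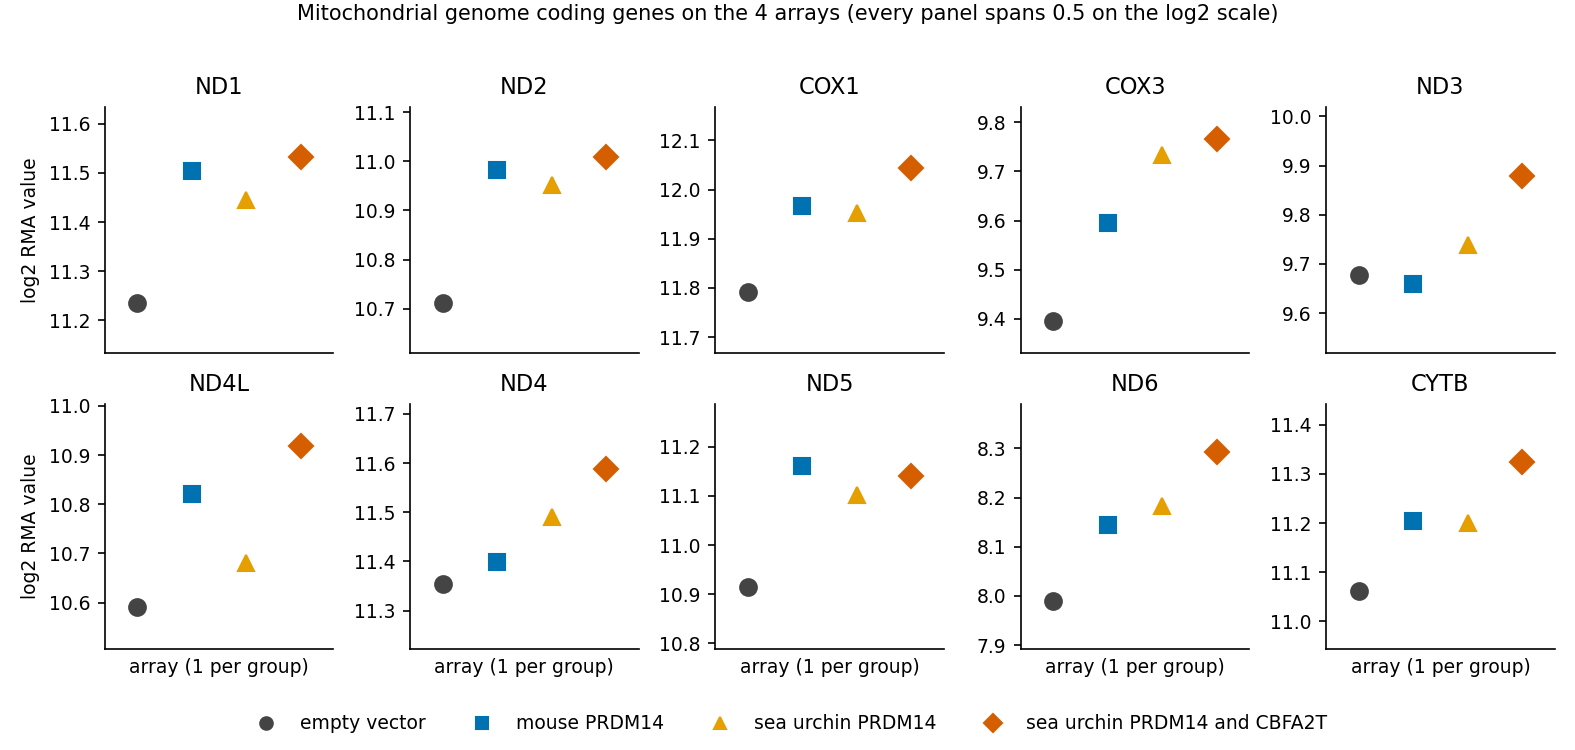
Log2 RMA values of the 10 mitochondrial genes, a panel per gene, with the 4 arrays along the horizontal axis and 1 point per array. Each panel spans the same width of the log2 scale, but panels start at different values, because levels of different probe sets are not comparable. The empty vector point is lowest in 9 of 10 panels, and the point for sea urchin PRDM14 and CBFA2T is highest in 9.

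Complex I takes 7 of the members. ND1, a core membrane subunit near the quinone site, read 11.24 with the empty vector, 11.50 with mouse PRDM14, 11.45 with sea urchin PRDM14 and 11.53 with both sea urchin proteins. ND2, a subunit of the proton-pumping arm, read 10.71, 10.98, 10.95 and 11.01 on the same arrays. In both genes the 3 PRDM14 arrays lay close together, and the empty vector array stood below them. ND5, the subunit at the far end of the same arm, had that shape too, with 10.91, 11.16, 11.10 and 11.14. Its highest value was on the mouse PRDM14 array.

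ND3 and ND4 looked different. ND4, another subunit of the proton-pumping arm, read 11.35 with the empty vector, 11.40 with mouse PRDM14, 11.49 with sea urchin PRDM14 and 11.59 with both sea urchin proteins. ND3, a small subunit at the joint of the complex, read 9.68, 9.66, 9.74 and 9.88. Here the mouse PRDM14 array stayed close to the empty vector level and the sea urchin arrays stood above both. ND4L, whose reading frame overlaps that of ND4, read 10.59, 10.82, 10.68 and 10.92. Unlike its neighbour, it was higher with mouse PRDM14 than with sea urchin PRDM14 alone.

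ND6 is the only protein gene on the opposite strand of the mitochondrial DNA, apart from the other 12. It read 7.99 with the empty vector, 8.14 with mouse PRDM14, 8.18 with sea urchin PRDM14 and 8.29 with both sea urchin proteins. Its order of arrays was that of ND4. Its profile, taken as each array's deviation from the gene's own mean, lay a root mean square distance of 0.016 from the median profile of the 10 members, where COX1 had 0.015 and ND3, the farthest, 0.070. The gene of the other strand was among those nearest to the median profile, of which it is itself a part.

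The members of the later complexes followed the same shape. CYTB, the cytochrome b of complex III, read 11.06 with the empty vector, 11.21 with mouse PRDM14, 11.20 with sea urchin PRDM14 and 11.32 with both sea urchin proteins. COX1, the catalytic subunit of complex IV, read 11.79, 11.97, 11.95 and 12.04. In both, the 2 single PRDM14 arrays were almost level. COX3, a further complex IV core subunit, read 9.40, 9.59, 9.73 and 9.77, and here both sea urchin arrays stood above the mouse PRDM14 array.

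The first question is how cells with mouse PRDM14 differ from cells with no PRDM14. With mouse PRDM14, 9 of 10 mitochondrial genes were above the empty vector value, where 48.4% of all genes were. The median log2 difference of the members was 0.19 (1.14-fold), beside -0.0053 over all genes and 0.016 over the 593 other bright genes. The standard deviation of the difference over all genes was 0.16 here, and between 0.16 and 0.20 in the 6 comparisons of arrays. ND2 (0.27), ND1 (0.27) and ND5 (0.25) had the highest differences, and ND4 (0.045) and ND3 (-0.017) the lowest. None of the members reached 2-fold, as 0.0830% of all genes did, or 1.5-fold, as 0.457% did. After cyclic loess, a further scaling that removes trends with brightness between arrays, ND4 changed sign (-0.035) and 8 of 10 members were above 0.

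The second comparison asks the same of the sea urchin protein. All 10 members were above the empty vector value with sea urchin PRDM14, against 51.6% of all genes. Their median difference was 0.17 (1.13-fold), beside 0.0056 over all genes and 0.029 over the other bright genes. COX3 had the highest difference (0.34) and ND3 the lowest (0.063). No member was 2-fold or 1.5-fold apart, against 0.0332% and 0.498% of all genes. This median depended on the scaling: after cyclic loess it was 0.088, and ND3 came down to 0.0001.

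Sea urchin PRDM14 with CBFA2T gave the highest values. All 10 members exceeded the empty vector value, where 51.6% of all genes did, with differences from 0.20 in ND3 to 0.37 in COX3. The median was 0.28 (1.21-fold), beside 0.0054 over all genes and 0.021 over the other bright genes. The complex I members had a median of 0.30, CYTB a difference of 0.26, and COX1 and COX3 differences of 0.25 and 0.37, so the 3 complexes overlapped. No member reached 2-fold or 1.5-fold, against 0.208% and 0.822% of all genes. Fibroblast markers had a median of -0.093 in this comparison, with 5 of 14 above 0, and embryonic stem cell markers one of -0.043, with 3 of 12 above 0. The part of either cell type in the mitochondrial values was not tested. These 3 comparisons use the same empty vector array, so a low reading of that array enters all of them.

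Adding CBFA2T to sea urchin PRDM14, which leaves the empty vector array out, gave smaller differences in the same direction. The CBFA2T array also enters the comparisons with the empty vector and with mouse PRDM14, so a high reading of it affects each. All 10 members were higher with CBFA2T than without, against 49.9% of all genes. Their median difference was 0.096 (1.07-fold), beside -0.0001 over all genes and -0.0005 over the other bright genes. ND4L differed most (0.24), followed by ND3 (0.14) and CYTB (0.12), and COX3 least (0.034). Without ND4L the median was 0.092. No member was 2-fold or 1.5-fold apart, as 0.183% and 0.515% of all genes were.

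The single PRDM14 proteins had no common difference from each other. On the sea urchin PRDM14 array 4 of 10 members were above the mouse PRDM14 value, against 53.4% of all genes, and the median was -0.0096. COX3 (0.14), ND4 (0.091) and ND3 (0.079) were highest, and ND4L (-0.14) lowest. None was 2-fold or 1.5-fold apart, against 0.0581% and 0.515% of all genes. With CBFA2T added, 9 of 10 members exceeded the mouse PRDM14 value, against 52.9% of all genes, with a median of 0.11 and ND3 highest at 0.22. ND5 was the exception (-0.021). Again none reached 2-fold or 1.5-fold, where 0.183% and 0.739% of all genes did.

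**Figure D2:**
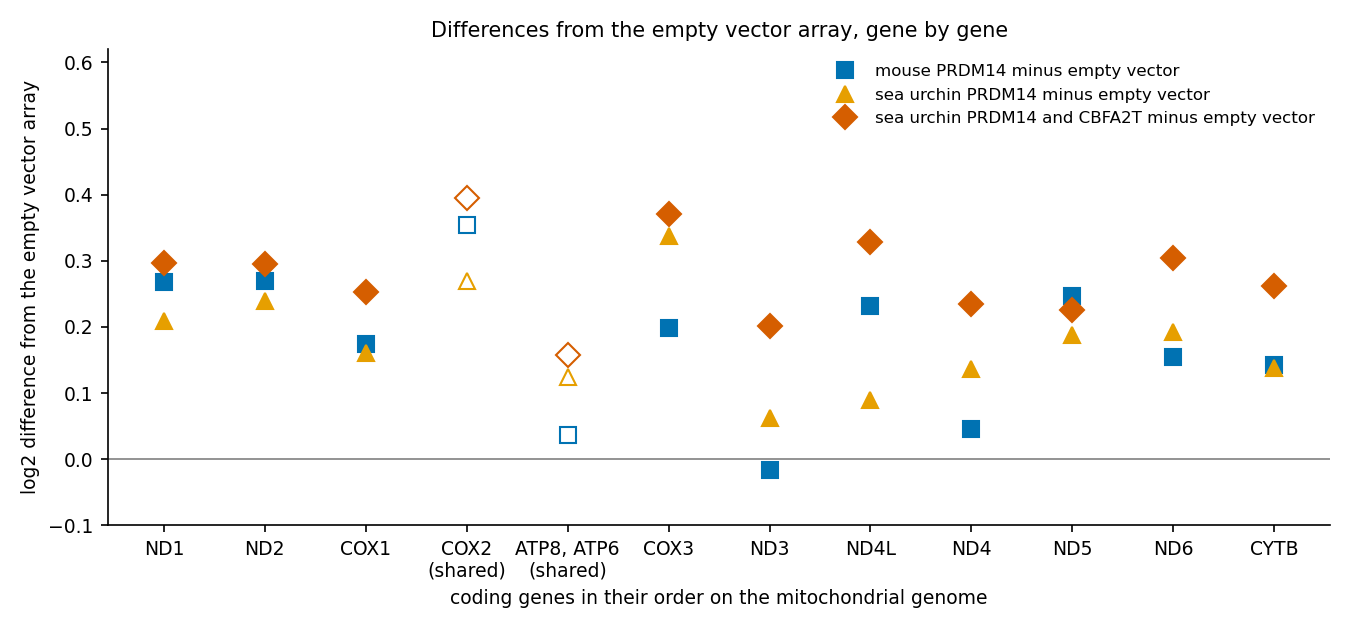
Log2 differences from the empty vector array (vertical axis) for the coding genes in their order on the mitochondrial genome (horizontal axis), with 1 symbol per PRDM14 array. Filled symbols are the 10 members, and open symbols are the 2 probe sets shared with other genes. All points but that of ND3 with mouse PRDM14 (-0.017) lie above 0, and the CBFA2T array is highest for every member except ND5.

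Some neighbours on the mitochondrial genome had nearly the same differences and others did not. ND1 and ND2, the first coding genes in order, differed from the empty vector by 0.27 each with mouse PRDM14, by 0.21 and 0.24 with sea urchin PRDM14 and by 0.30 each with CBFA2T added. COX3 and ND3 follow each other, yet with sea urchin PRDM14 they gave the highest and the lowest difference of all members (0.34 and 0.063). ND4L and ND4 overlap and are known to share a transcript, yet with mouse PRDM14 they differed from the empty vector by 0.23 and 0.045. The ND4L probe set stands apart in the array's design. Identifiers of probe sets followed chromosomes, with 98.4% of neighbouring named pairs on the same chromosome by the GRCm38.p6 annotation. Those of the other 9 members lay in a single run, whereas the ND4L identifier lay between those of the chromosome 1 genes Col19a1 and Adgrb3. Whether the ND4L probe set reads RNA of a nuclear copy was not tested.

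The other 3 coding genes had only shared probe sets, which cannot be assigned to 1 gene. The probe set paired with both COX2 and Prf1, the perforin gene, read 10.48 with the empty vector, 10.83 with mouse PRDM14, 10.75 with sea urchin PRDM14 and 10.87 with both sea urchin proteins. It showed the shape of ND1 and ND2, with the empty vector lowest. The probe set paired with ATP6, ATP8 and Gm10925, an annotated pseudogene on chromosome 1, read 11.08, 11.11, 11.20 and 11.23. Its identifier is next to that of ND4L, but its order of arrays was that of ND4. None of the 2 ribosomal and 22 transfer RNA genes of the mitochondrial genome had a named probe set in the annotation used.

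The nuclear genes of the same complexes had medians below those of the mitochondrial genes in each comparison with the empty vector. The 2 sets differed in brightness. The nuclear subunits had means between 6.34 and 6.38 per array, and the dimmest member, ND6, had a mean of 8.15. The part of brightness in this contrast was not tested. The 24 measurable nuclear complex I subunits had medians of 0.0028 with mouse PRDM14, 0.0060 with sea urchin PRDM14 and -0.015 with both sea urchin proteins, all against the empty vector. With CBFA2T added, 11 of the 24 were above 0, where all 7 mitochondrial complex I genes were. The 4 complex II subunits, which form the only complex without a mitochondrial gene, were all below the empty vector value there (median -0.13). Their medians were -0.072 with mouse PRDM14 and 0.038 with sea urchin PRDM14, where 3 of 4 were above 0. Complex III (8 genes) had medians of 0.029 with mouse PRDM14, where 7 of 8 were above 0, 0.0099 with sea urchin PRDM14 and -0.013 with both sea urchin proteins. Complex IV (9 genes) had medians of 0.078, -0.066 and -0.072 in that order. The 15 nuclear ATP synthase subunits had medians of 0.0325, 0.039 and 0.0144, with 9, 9 and 10 of 15 above 0. Over all 60 measurable nuclear subunits, ATP synthase included, the medians were 0.016, 0.0099 and -0.021 in the same order of arrays. For sea urchin PRDM14 alone, complex I and all nuclear subunits had no settled sign: after cyclic loess their medians were -0.0074 and -0.0034. Of all genes, 48.4%, 51.6% and 51.6% were above the empty vector value in the same order of arrays. With CBFA2T added 26 of the 60 were above it, and 1 reached 1.5-fold, as 0.822% of all genes did.

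That 1 gene was Atp5h, a stalk subunit of ATP synthase, which read 6.43 with the empty vector, 6.78 with mouse PRDM14, 6.84 with sea urchin PRDM14 and 7.12 with both sea urchin proteins. Its order of arrays was that of ND4 and ND6, with a larger span (0.69). Among nuclear complex I genes, the largest difference from the empty vector was a negative one, in the accessory subunit Ndufa2 (-0.45 with mouse PRDM14). Ndufa4, a complex IV subunit, was also lower with mouse PRDM14 (-0.37) and with CBFA2T added (-0.38). Complex II was led by Sdhd, a membrane anchor subunit (-0.25 with mouse PRDM14), and complex III by Uqcrb (-0.20 with CBFA2T added).

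Genes that make and handle mitochondrial RNA had no common direction over the 3 comparisons with the empty vector. For transcription and copying of mitochondrial DNA, 12 genes were measurable, with medians of -0.065, 0.049 and -0.029 in the same order of arrays. Lig3, a DNA ligase of nucleus and mitochondria, differed most (0.29 with CBFA2T added). For cutting, stability and decay of mitochondrial RNA, 15 genes had medians of -0.016, 0.14 and 0.017. With sea urchin PRDM14 12 of the 15 were above 0, against 51.6% of all genes. After cyclic loess the median of this list there was 0.15, above that of the members (0.088). Grsf1, an RNA-binding protein of mitochondrial RNA granules, read 8.18 with the empty vector, 7.91 with mouse PRDM14, 8.30 with sea urchin PRDM14 and 7.65 with both sea urchin proteins. It was the only gene of its list past 1.5-fold, at -0.65 between the 2 sea urchin arrays, opposite in sign to all 10 members there.

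The machinery that translates mitochondrial messages was measured by 58 ribosomal protein genes, with medians of -0.0095, 0.030 and 0.033. Mrpl52 of the large subunit had the largest difference (0.53 with mouse PRDM14). The 12 regulators of mitochondrial biogenesis had medians of -0.061, -0.080 and -0.086. In each comparison 3 of 12 were above 0, against 48.4%, 51.6% and 51.6% of all genes. All 3 comparisons use the same empty vector array. Ppargc1b, a coactivator of that programme, was lowest (-0.37 with CBFA2T added). The 27 assembly factors of the respiratory complexes had medians of -0.043, 0.013 and -0.0055, and the complex IV factor Coa3 differed most (-0.44 with mouse PRDM14).

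**Figure D3:**
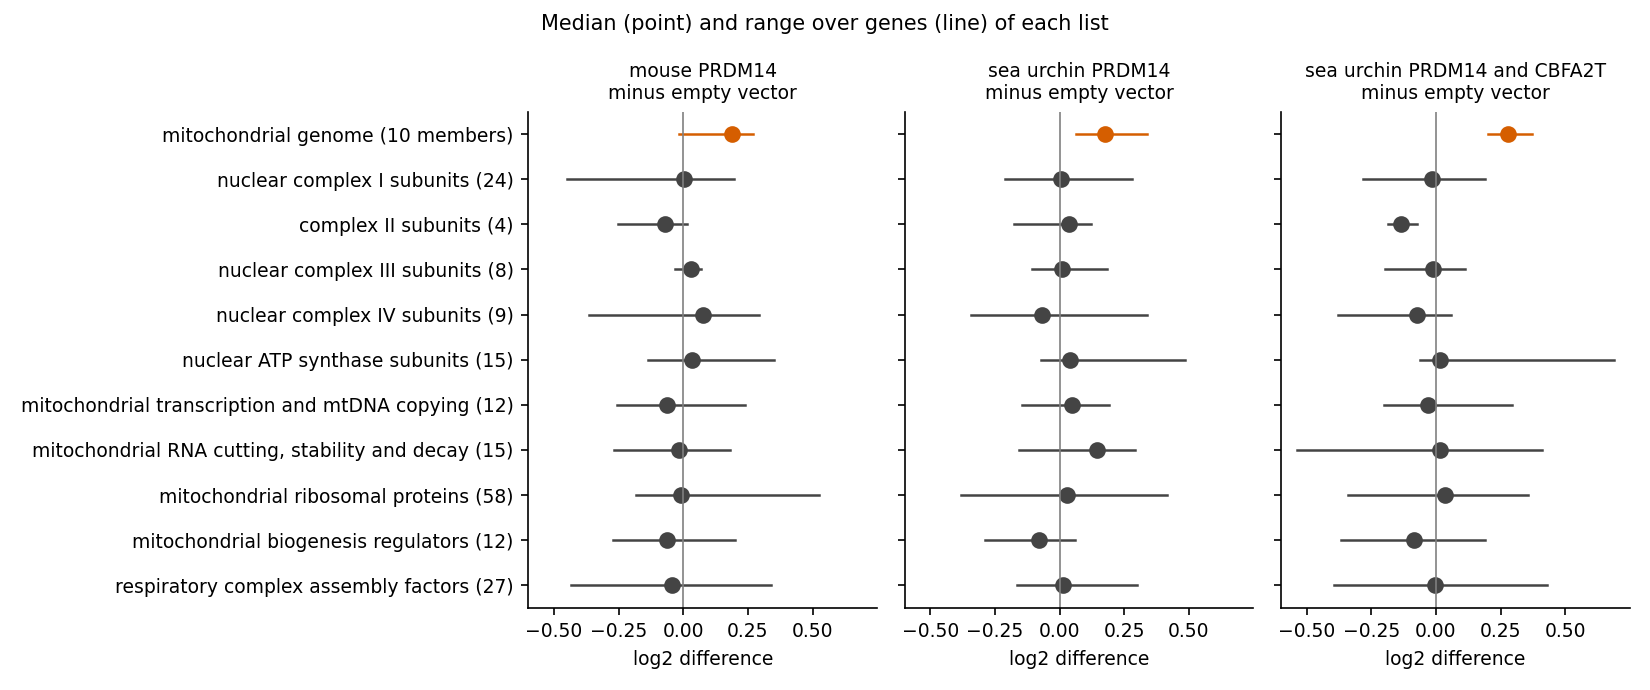
Log2 differences from the empty vector array (horizontal axis) for the 10 mitochondrial genes and 10 lists of nuclear genes (vertical axis, with the number of measurable genes), 1 panel per PRDM14 array. Points are medians over genes and lines run from the lowest to the highest gene. The mitochondrial median lies highest in each panel, at 0.19, 0.17 and 0.28; after cyclic loess that of sea urchin PRDM14 (0.088) lies below the list for cutting, stability and decay of RNA (0.15).

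Some nuclear genes had nearly the same profile as the members. Measurable genes outside the mitochondrial genome were compared if they had an established symbol and spanned at least as much as the median profile (0.29). Some members, such as ND3 (0.22), spanned less. Among the 2240 compared, Brd2, Hivep3, Smurf2, Zfp469 and Smg6 were nearest, at root mean square distances between 0.0066 and 0.017. Smg6 reached the filter value only on the array with CBFA2T (4.85), where the profile is highest. Brd2, a bromodomain protein that reads acetylated histones, read 5.96 with the empty vector, 6.15 with mouse PRDM14, 6.14 with sea urchin PRDM14 and 6.27 with both sea urchin proteins. As many as 169 of the 2240 genes lay as near to the median profile as the farthest member, ND3, did. The median distance of the 2240 genes was 0.17. A match over 4 arrays is thus not particular to the members and describes these arrays only.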

How the data were processed

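The authors deposited log2 values of 41345 probe sets on 4 arrays; the submitters' processing notes name RMA as the method. Its version, the set of arrays it was run on and the build behind the annotation were not stated. RMA equalises the arrays, so a shift shared by most genes would not show. Names came from the platform annotation (23521 probe sets with 1 gene, 1814 with several, 16010 with none), and chromosomes and gene order from the RefSeq table of GRCm38.p6, which held 23328 of the 23521. Genes with several probe sets used the one with the highest mean.

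With 1 array per group no test was made; differences between arrays were called at 2-fold. Levels of different probe sets were compared only as brightness, not as amounts of RNA. Members, lists and comparisons were chosen with earlier results of these data known. Named list genes were those at the extremes of a list past 1.5-fold, otherwise the one with the largest difference from the empty vector; the 5 genes of like profile had the smallest distance. Precision is limited by the number of arrays. The calling step was checked on simulated data. Alternatives were cyclic loess, subtraction of the median of genes in the same twentieth (20 bins) of mean value, the mean of all probe sets, no filter, a filter at 5.65 and a 1.5-fold threshold. Leaving out ND4L, and counts above 0 under each alternative, were added after the values were seen. The counts of lowest and highest arrays were not planned beforehand. No sequence is printed, since the tables used held none for these genes. Software: limma 3.58.1 in R 4.3.3, and numpy 2.4.6, pandas 2.3.3 and matplotlib 3.10.9 in Python 3.11.15.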

Additional observations from a re-analysis of the deposited data

Results flagged for a closer look

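Outside the named genes, 2 probe sets with identifiers between those of ND1 and ND6 were at least 2-fold above the empty vector array. Both reached the filter value of 4.84 on some array, and no comparison above uses them. The platform annotation pairs neither with a gene. Among 12042 genes, 0.0830% were 2-fold apart from that array with mouse PRDM14, 0.0332% with sea urchin PRDM14 and 0.208% with both sea urchin proteins. For probe sets without a gene no such share was counted. Probe set 17532641 read 4.87 with the empty vector, 6.74 with mouse PRDM14, 6.89 with sea urchin PRDM14 and 6.65 with both sea urchin proteins. Its log2 differences from the empty vector were 1.87, 2.01 and 1.78, where no member exceeded 0.37. Probe set 17532623 was higher by 1.02 with mouse PRDM14, from 4.03 on the empty vector array, below the filter value. A further one, 17532645, which stayed below the filter value on every array, was higher by 1.23 with both sea urchin proteins.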

How the results depend on the processing

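The median differences of the members kept their sign in all 6 comparisons under cyclic loess, the brightness correction, the mean of all probe sets, both other filters and without ND4L. Cyclic loess moved them most, by up to 0.087, from 0.17 to 0.088 for sea urchin PRDM14 less empty vector, from 0.28 to 0.20 with CBFA2T added and from 0.19 to 0.14 with mouse PRDM14. The cause was not tested. The brightness correction moved medians by up to 0.032 and leaving out ND4L by up to 0.017. The 2 filters and the mean of all probe sets left them as they were, since each member has 1 probe set and passes both filters. Of 354 single-gene values under these alternatives, 353 kept their sign and stayed within 0.1, and ND4 with mouse PRDM14 changed sign under cyclic loess (-0.035 in place of 0.045). After cyclic loess 8 of 10 members were lowest on the empty vector array, and 9 were highest with CBFA2T. The shares of all genes given above, 25.4% and 27.3%, are from values before cyclic loess. None was counted after it, so these 2 counts have no background beside them. The count of members past 2-fold was 0 in every comparison and alternative, the 1.5-fold threshold included. Differences this small cannot be separated from array noise without replicates.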

Other observations

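Between the identifiers of ND1 and ND6 lie 13 probe sets without a gene in the annotation. On the mouse PRDM14 array 12 of the 13 were above the empty vector value. On the sea urchin PRDM14 array 13 were, and on that of both sea urchin proteins 11. Of all 22180 genes, taken without the filter, 49.2%, 49.6% and 50.1% were. With CBFA2T 9 of the 13 were higher than with sea urchin PRDM14 alone, against 50.6% of those genes. Only 6 of the 13 reached the filter value on some array, and 17532623 did so only on the arrays where it is high. These probe sets were picked by identifier after the values of the members had been seen, and the annotation does not say what they measure.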
